A study of Mus musculus with 6 samples.

Results

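The chemokines and chemokine receptors of the mouse colon were examined as one gene family in RNA sequencing of Nsd2fl/fl and Nsd2ΔIE mice. Every row of the count tables whose symbol was a chemokine name (Ccl, Cxcl, Xcl or Cx3cl with its number) or a receptor name (Ccr, Cxcr, Xcr, Cx3cr or Ackr with its number) was taken. The rule used names and no measured value, and it found 54 of 24517 genes, of which 34 encode ligands and 20 encode receptors. A mean of at least 10 counts over the 6 libraries was required to call a gene detected, which left 44 genes, 26 ligands and 18 receptors. All 44 were also tested. The other 10 genes (Ccl1, Ccl27b, Ccl3, Ccr8, Cxcl1, Cxcl17, Cxcl2, Cxcl3, Cxcl5 and Cxcr2) were not detected.

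Chemokines are small secreted proteins that direct the migration of cells along gradients by binding G protein-coupled receptors. In the gut some are made constantly by epithelium, stroma and lymphatic vessels and place lymphocytes and phagocytes within the mucosa and its follicles, while others are induced by interferons or by bacterial products through NF-kappaB and recruit neutrophils, monocytes or T cells. The atypical receptors bind and remove chemokines without the usual G protein signal.

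All mice carried the floxed Nsd2 gene on a C57BL/6J background and, per the labels, ate HFCD, a diet rich in fat and cholesterol, over 16 weeks (the methods give another duration). NSD2 is a histone methyltransferase of lysine 36 on histone H3. In Nsd2ΔIE mice (NSD2∆IE in the labels, 3 libraries) a Cre under the Villin promoter, which is active in intestinal epithelium, deleted it, and Nsd2fl/fl mice (NSD2fl/fl in the labels, 3 libraries) were the controls. The RNA came from the colon, with epithelial, muscle, stromal, vascular and immune cells together, and the Villin promoter is not active in immune and stromal cells. In such bulk RNA, fewer cells of a type and less RNA per cell cannot be told apart.

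The libraries were similar in depth, with 38041832 to 38604680 counts each. Nsd2 had 1840 to 2455 counts in the Nsd2fl/fl libraries and 914 to 1139 counts in the Nsd2ΔIE libraries. Xist, the RNA of the inactive X chromosome in females, had 0 to 4 counts in Nsd2fl/fl and 21217 to 24234 counts in Nsd2ΔIE, although the methods describe male animals. In every comparison of the groups, for autosomal as for X-linked genes, genotype and a sex difference as marked by Xist cannot be told apart. The libraries also fell into 2 sets that crossed the genotypes. Hoxb13, a homeobox gene expressed in the most distal gut, had 14052 and 12125 counts in Nsd2fl/fl replicates 1 and 3 and 12288 in Nsd2ΔIE replicate 1, against 25 in Nsd2fl/fl replicate 2 and 197 and 1086 in Nsd2ΔIE replicates 2 and 3. The leading principal component of all genes tested, with 51.0% of the variance, separated the same sets, at scores of -50.4, -55.2 and -34.9 against 55.0, 53.0 and 32.4. High-Hoxb13 and low-Hoxb13 libraries are named below where a gene followed this division, which is not a group of the study. The labels do not say whether the libraries of a group came from separate mice, so p-values measure the spread between these libraries, which may be technical.

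The most abundant ligands were far above every receptor, while the lower ligands lay within the range of the receptors. Levels are on the FPKM scale, which is per gene length. Ccl6, a CC chemokine known from macrophages and other myeloid cells, had the highest level of the family at 393 ± 42.5 (SD, n = 6). It supplied 41.5% to 56.3% of all ligand counts in a library, and which cells of the colon made it was not tested. Ccl21a, which lymphatic endothelium and lymphoid stroma use to attract cells bearing Ccr7, followed at 111 ± 22.2 FPKM. These levels did not overlap between any libraries, at 311 to 433 FPKM for Ccl6 against 79.8 to 149 for Ccl21a. Ccl8, a monocyte-attracting chemokine, came next at 44.7 ± 15.1 FPKM, below every Ccl21a value. From there the order was within the spread of the libraries: Cx3cl1 had 27.2 ± 5.12 FPKM, Ccl28 26.6 ± 12.5, Ccl11 21.1 ± 4.91 and Ccl5 20.6 ± 14.4, with overlapping ranges.

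In all, 11 ligands had a mean over 10 FPKM and 0 of the 18 detected receptors did. The most abundant receptors were of the atypical class: Ackr3, which removes Cxcl12, had 8.03 ± 1.27 FPKM, and Ackr4, which removes Ccl19, Ccl21a and Ccl25, had 5.91 ± 1.01. The highest signalling receptors were Cx3cr1 at 3.94 ± 0.748 and Cxcr4 at 3.85 ± 1.81 FPKM, and Ccr4 was the lowest detected receptor at 0.0968 ± 0.0386 FPKM. The plot of levels by library places each ligand and receptor on this scale.

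**Figure D1:**
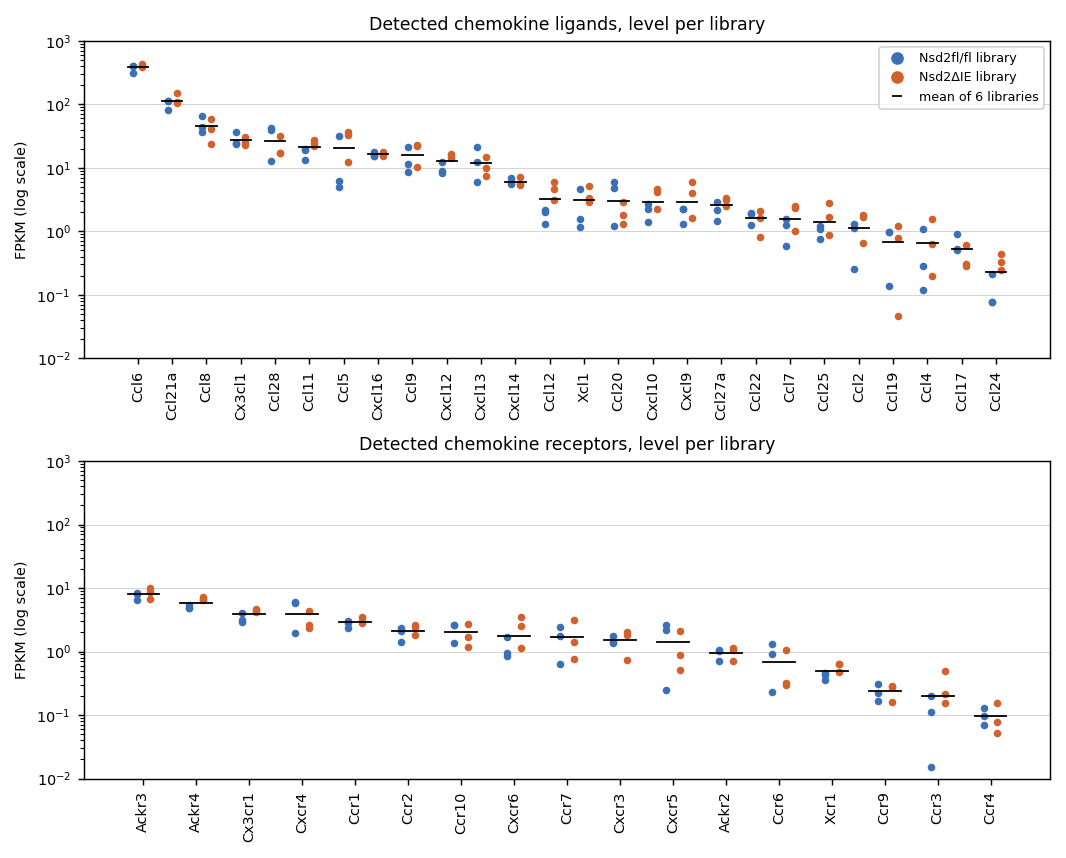
Level of the 26 detected ligands (top) and 17 of the 18 detected receptors (bottom) on a log FPKM axis, with a point for each library (blue, Nsd2fl/fl, 3 libraries; orange, Nsd2ΔIE, 3 libraries) and a line at the mean of the 6 libraries. Ccl6 stands highest at 393 FPKM, and no receptor mean passes 10 FPKM.

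To ask whether deletion of Nsd2 moved the family, Nsd2ΔIE was compared with Nsd2fl/fl for all 16347 genes tested. With edgeR's quasi-likelihood test and Benjamini-Hochberg adjustment, 0 of the 44 chemokine genes had an adjusted p under 0.05, and 0.0306% of all genes did. The adjusted p of the 44 genes ran from 0.312 to 0.999. DESeq2 and limma-voom with quality weights also called 0 of them, and 4 had an unadjusted p under 0.05 in edgeR. With an unadjusted p under 0.05 and a log2 fold change over 0.322 in size, the threshold of the study on the log2 scale, 4 genes were higher in Nsd2ΔIE, Cxcl12, Ccl12 and Ccl24 among them, and 0 were lower. Among all genes tested, 8.05% were higher and 2.21% lower by that rule, so 4 of 44 (9.09%) lay near the background.

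The count of higher genes depended on the libraries. It was 7 without Nsd2fl/fl replicate 2, 2 without Nsd2fl/fl replicate 3, 7 without Nsd2ΔIE replicate 1, 1 without Nsd2ΔIE replicate 2 and 2 without Nsd2ΔIE replicate 3. The count of lower genes was 3 without Nsd2fl/fl replicate 2 (Ccl20, Ccl28 and Cxcr4) and 1 without Nsd2ΔIE replicate 2 (Ccl17). Nsd2fl/fl replicate 2 was the only low-Hoxb13 control, so without it all controls were high-Hoxb13 libraries. When library totals replaced TMM factors, the all-gene median moved by 0.127 on the log2 scale, from -0.041 to 0.086, and the higher count was 7. With those totals 4 genes turned from below to above 0: Ackr2 (0.06), Ccr9 (0.05), Cxcl16 (0.05) and Cxcr3 (0.03). The median log2 fold change of the 44 chemokine genes was 0.09, with 0.32 for ligands and 0.01 for receptors. The median of the 44 was 0.21 with library totals alone and 0.06 without Nsd2fl/fl replicate 2. The log2 fold change was above 0 in 26 genes (59.1%, beside 43.7% of all genes) and below 0 in 18.

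In 6 of the 44 genes all Nsd2ΔIE libraries lay above all Nsd2fl/fl libraries in CPM, the counts scaled to a common library size with TMM factors. These were Ackr4, Ccl11, Ccl12, Ccl24, Cx3cr1 and Cxcl12, or 13.6%, beside 11.4% of all genes tested. No chemokine gene had all Nsd2ΔIE libraries below, as 7.28% of all genes did.

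**Figure D2:**
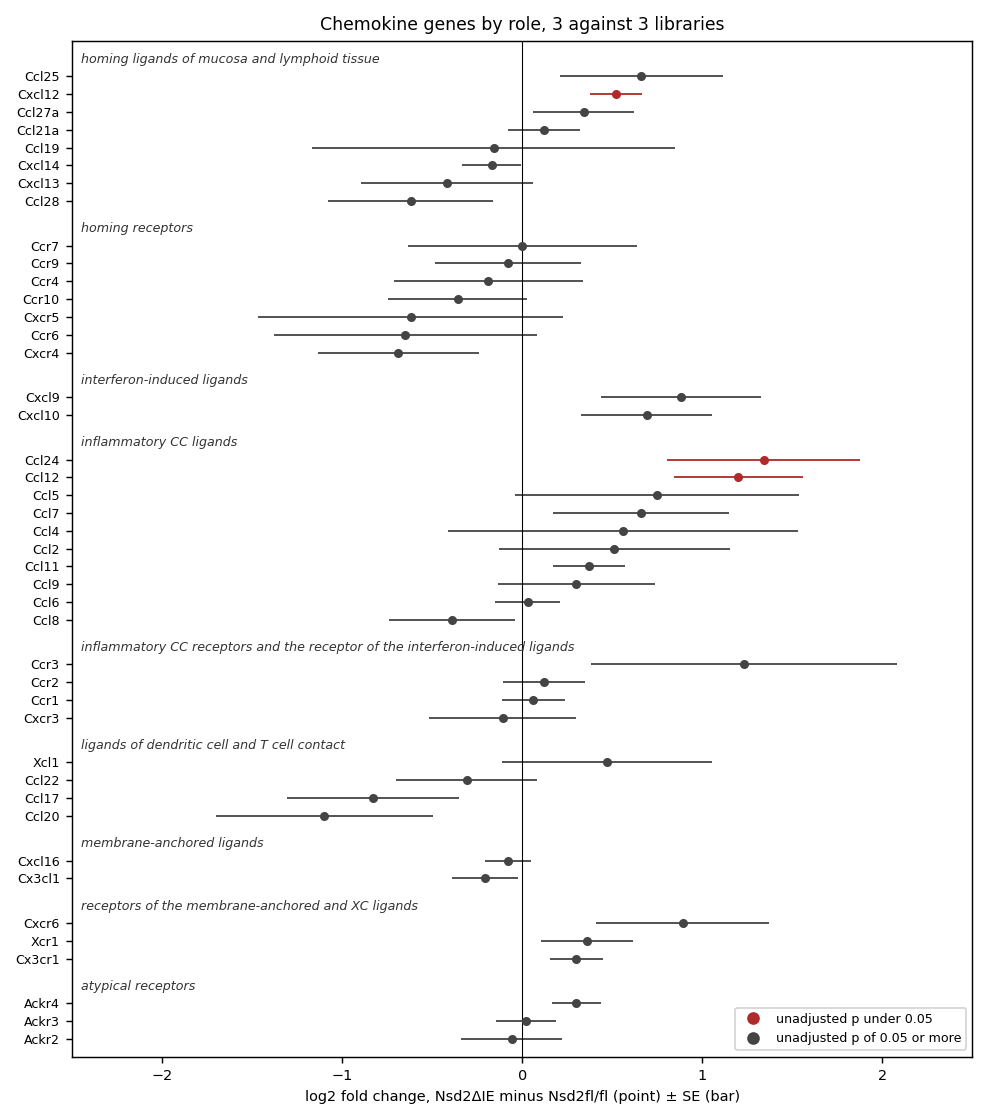
Log2 fold change of the detected genes, 1 left out, Nsd2ΔIE minus Nsd2fl/fl, with its SE as the bar, by role; red marks an unadjusted p under 0.05 (edgeR quasi-likelihood test, 3 against 3 libraries). Of the genes drawn, Cxcl12, Ccl12 and Ccl24 are red, all to the right of 0, and none passed adjustment.

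Cxcl12, the stromal ligand of Cxcr4 that retains and positions leukocytes and progenitors, had the smallest p of the family. It lies on chromosome 6 (chr6:117168535-117181367, mm10, plus strand). In replicates 1 to 3, the Nsd2fl/fl libraries held 3377, 2432 and 2243 reads of it and the Nsd2ΔIE libraries 3918, 4218 and 4541, an order of replicates kept below. Every Nsd2ΔIE library was above every Nsd2fl/fl library. The Nsd2fl/fl level was 73.1 ± 12.9 CPM and the Nsd2ΔIE level 105 ± 5.46 CPM (SD, n = 3 for each), which is 0.52 as a log2 fold change (SE 0.144, edgeR unadjusted p = 0.00899, adjusted p = 0.312). The unadjusted p was under 0.05 in each of 16 alternative settings, from 0.000976 to 0.0341, and the adjusted p ranged from 0.0781 to 0.99. The difference was 0.41 between the high-Hoxb13 libraries and 0.65 between the low-Hoxb13 libraries on the log2 CPM scale.

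Marker genes of smooth muscle and of enteric neurons and glia were higher in Nsd2ΔIE, as Cxcl12 was. Of 6 smooth muscle markers, 5 were higher by the same threshold of p and fold, with a summed level of 1338 to 3884 CPM in Nsd2fl/fl and 4832 to 10394 in Nsd2ΔIE. All 7 markers of enteric neurons and glia were higher, at 38.2 to 62.0 CPM against 81.9 to 106. The fibroblast list was mixed, with Dcn and Lum higher but a median log2 fold change of -0.02 over its 6 genes, values of -0.11 for Col1a1, -0.09 for Pdgfra and -0.12 for Pdgfrb, and overlapping sums of 717 to 818 against 807 to 928 CPM. Of 4 lymphatic endothelial markers Prox1 alone passed, with log2 fold changes of 0.11 for Lyve1, 0.29 for Flt4 and -0.01 for Pdpn, and the sum was 76.5 to 89.4 against 93.7 to 96.7 CPM. Adipocyte markers were higher in 2 of 5 tested, at 14.9 to 30.0 against 32.3 to 72.0 CPM. No marker of smooth muscle, enteric neurons and glia, fibroblasts or lymphatic endothelium was at 0 in any library, while Adipoq, Plin1, Lep and Retn of the adipocyte list were at 0 in at least 1 library. Their part in the Cxcl12 result was not tested.

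The receptors of Cxcl12 did not follow it. Cxcr4, carried by most lymphocytes and by many myeloid cells, had 643, 213 and 659 counts in Nsd2fl/fl and 474, 262 and 289 in Nsd2ΔIE. The groups overlapped, and the 3 high-Hoxb13 libraries held the 3 highest values. The log2 fold change was -0.69 (SE 0.447, unadjusted p = 0.167), and -1.05 (unadjusted p = 0.00941) without Nsd2fl/fl replicate 2, the only low-Hoxb13 control. With the side of the leading principal component as covariate, a fit added after the data were seen, it was -0.2 (edgeR unadjusted p = 0.384). Ackr3 had 742, 581 and 707 counts in Nsd2fl/fl and 609, 775 and 892 in Nsd2ΔIE, with a log2 fold change of 0.02 (SE 0.165, unadjusted p = 0.895), a difference whose sign changed in 5 of 16 alternatives.

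The other homing ligands place lymphocytes in follicles, in the lamina propria or in the epithelium. Over the 8 detected members of this list, Cxcl12 included, the log2 fold change was above 0 in 4 and below 0 in 4, with a median of -0.02. Ccl21a, the most abundant of them, had 3663, 2653 and 3779 counts in Nsd2fl/fl and 4980, 3570 and 3502 in Nsd2ΔIE. Its groups overlapped (log2 fold change 0.12, SE 0.198, unadjusted p = 0.564), and the sign changed in 3 of 16 alternatives. Since near-identical copies of Ccl21a exist, its count is uncertain. Ccl28, the epithelial ligand that draws IgA plasma cells through Ccr10, had 6773, 2075 and 6394 counts in Nsd2fl/fl and 5165, 2857 and 2775 in Nsd2ΔIE. The 3 high-Hoxb13 libraries had the 3 highest values. Its log2 fold change was -0.62, and that of Cxcl13, the follicular ligand that attracts B cells through Cxcr5, was -0.42 at 12 FPKM.

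Cxcl14, an epithelial and stromal chemokine, had 6.06 ± 0.796 FPKM, a 1.42-fold range over the libraries and a log2 fold change of -0.17. Ccl25, the ligand of Ccr9 that marks the small intestine, had a low level of 1.41 FPKM and a log2 fold change of 0.66. Ccl27a had 2.60 FPKM and 0.34, and Ccl19, the other ligand of Ccr7, 0.683 FPKM and -0.16. Exons of Ccl25 overlap Elavl1 and those of Ccl27a overlap Il11ra1 on the opposite strand, and since the use of strand in counting is not stated, both are uncertain.

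Of the 7 homing receptors detected, 6 had a log2 fold change below 0 and Ccr7 had 0.00, and 0 passed an unadjusted p of 0.05. With library totals alone the count below 0 was 5, without Ccr9. Besides Cxcr4 these were Cxcr5 of B cells and follicular helper T cells at -0.62, Ccr6 of B cells and type 17 lymphocytes at -0.65, Ccr10 of plasma cells at -0.36 (2.04 FPKM), Ccr4 of helper and skin-homing T cells at -0.19 and Ccr9 of gut-homing T cells at -0.08 (0.236 FPKM). Ccr7 had 1.7 FPKM, Cxcr5 1.42 and Ccr6 0.686. Their spread was wide, with SE of 0.848 for Cxcr5 and 0.732 for Ccr6. With the side of the leading principal component as covariate, Cxcr5 was at 0.41, Ccr6 at 0.02 and Ccr7 at 0.52. In that fit Cxcr4, Ccr10, Ccr4 and Ccr9 were below 0. Cxcr5 had 216, 25 and 262 counts in Nsd2fl/fl and 212, 91 and 51 in Nsd2ΔIE. Both ends of its 10.4-fold range in CPM were Nsd2fl/fl libraries. Ccr8, the other receptor of this list, was not detected, with 0 to 9 counts. Exons of Cxcr5 overlap Bcl9l and those of Ccr9 overlap Slc6a20a and Gm17200, so both counts are uncertain.

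This division by library held for many members. In 12 of the 44 genes every high-Hoxb13 library exceeded every low-Hoxb13 library (27.3%, beside 12.8% of all genes tested): Ccl19, Ccl20, Ccl21a, Ccl28, Cxcl13, Cxcl14, Ackr2, Ccr6, Ccr7, Ccr10, Cxcr4 and Cxcr5. In 9 genes (20.5%, beside 9.55% of all genes) every high-Hoxb13 library was below, among them Ccl4, Ccl5, Ccl9, Xcl1, Ccr3, Cxcr3, Cxcr6 and Xcr1. These are descriptions of sets read from the data, with no test. Several ligands and their receptors fell on the same side. Ccl20 and Ccr6, Cxcl13 and Cxcr5, Ccl28 and Ccr10, and Ccl19 and Ccl21a with Ccr7 were all high with Hoxb13, and Xcl1 and Xcr1 were both low with it.

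**Figure D3:**
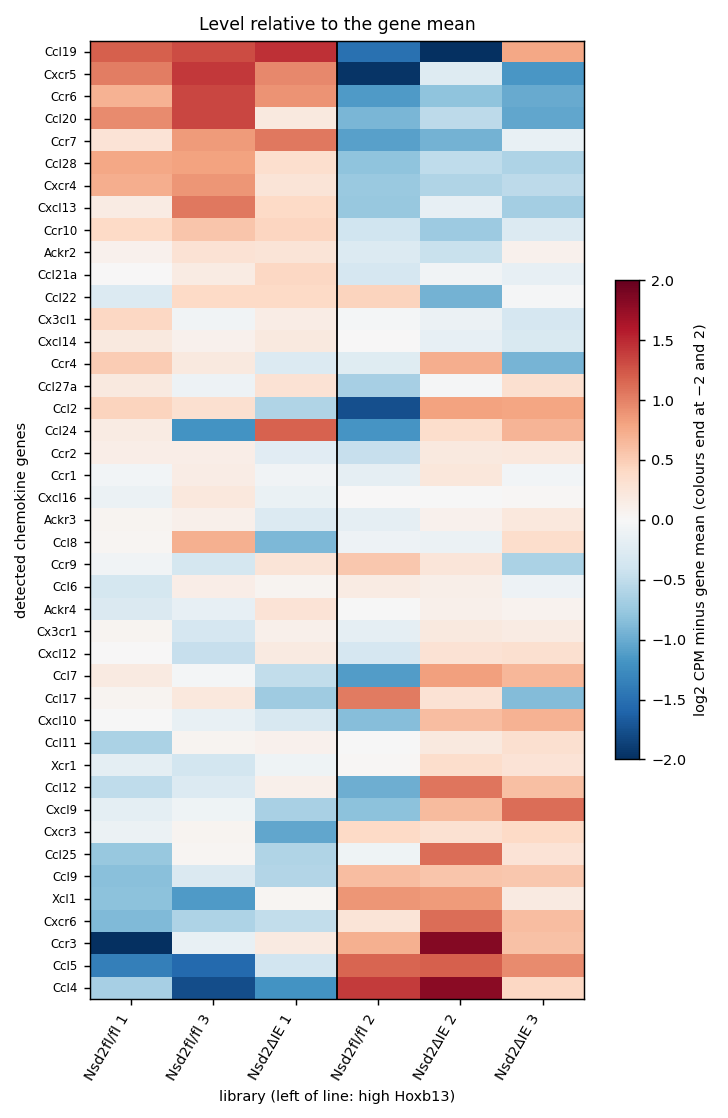
Log2 CPM of the detected genes, 1 left out, each minus its mean over the 6 libraries, with high-Hoxb13 libraries left of the line and low-Hoxb13 libraries right of it; genes are ordered by the difference between these sides. Red is above and blue below the gene mean: genes at the top, such as Cxcr5 and Ccr6, are above it left of the line, and genes at the bottom, such as Ccl5 and Ccl4, are below it there.

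The B cell markers showed the same division. Their summed level was 97.0, 127 and 85.3 CPM in the high-Hoxb13 libraries and 12.5, 23.5 and 25.5 CPM in the low-Hoxb13 libraries, and Ms4a1 had 405, 761 and 465 counts against 29, 124 and 132. No B cell marker was at 0. By genotype the sum ran from 12.5 to 127 CPM in Nsd2fl/fl and from 23.5 to 85.3 CPM in Nsd2ΔIE. The summed T cell markers went the other way, at 32.7, 26.9 and 34.6 CPM against 53.7, 53.1 and 50.9, and Cd8a had 129, 61 and 108 counts against 387, 447 and 389. The list was not uniform, since Cd4 had 559, 429 and 524 counts against 424, 455 and 427 and Cd5 had 57, 41 and 64 against 46, 72 and 112. The part of these cells in the chemokine values was not tested.

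Ccl20 and Ccl17 had the lowest p among the genes that were lower in Nsd2ΔIE. Ccl20, made by the epithelium over lymphoid follicles and by inflamed epithelium, had 148, 37 and 179 counts in Nsd2fl/fl and 90, 55 and 40 in Nsd2ΔIE. The groups overlapped, and the 3 highest values were those of the high-Hoxb13 libraries. Its log2 fold change was -1.10 (SE 0.602, unadjusted p = 0.112, edgeR adjusted p = 0.559), but the difference was -0.94 between high-Hoxb13 libraries and 0.14 between low-Hoxb13 libraries. Without Nsd2fl/fl replicate 2, the only low-Hoxb13 control, the log2 fold change was -1.52 (unadjusted p = 0.00767). With the side of the leading principal component as covariate it was -0.44 (edgeR unadjusted p = 0.287). Its receptor Ccr6 had 146, 38 and 210 counts against 173, 53 and 48.

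Ccl17, which dendritic cells use to attract Ccr4-bearing T cells, had 28, 51 and 29 counts in Nsd2fl/fl and 17, 34 and 16 in Nsd2ΔIE. Only Nsd2ΔIE replicate 2 overlapped the controls, and the log2 difference was -0.78 between high-Hoxb13 and -1.25 between low-Hoxb13 libraries. The overall log2 fold change was -0.83 (SE 0.476, unadjusted p = 0.125, edgeR adjusted p = 0.578). With the division of the libraries as a covariate, a fit added after the data were seen, it was -1.04 (unadjusted p = 0.0477), and without Nsd2ΔIE replicate 2 it was -1.28 (unadjusted p = 0.0465). Ccl22, its neighbour gene and the other ligand of Ccr4, had a log2 fold change of -0.31 at 1.6 FPKM.

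**Figure D4:**
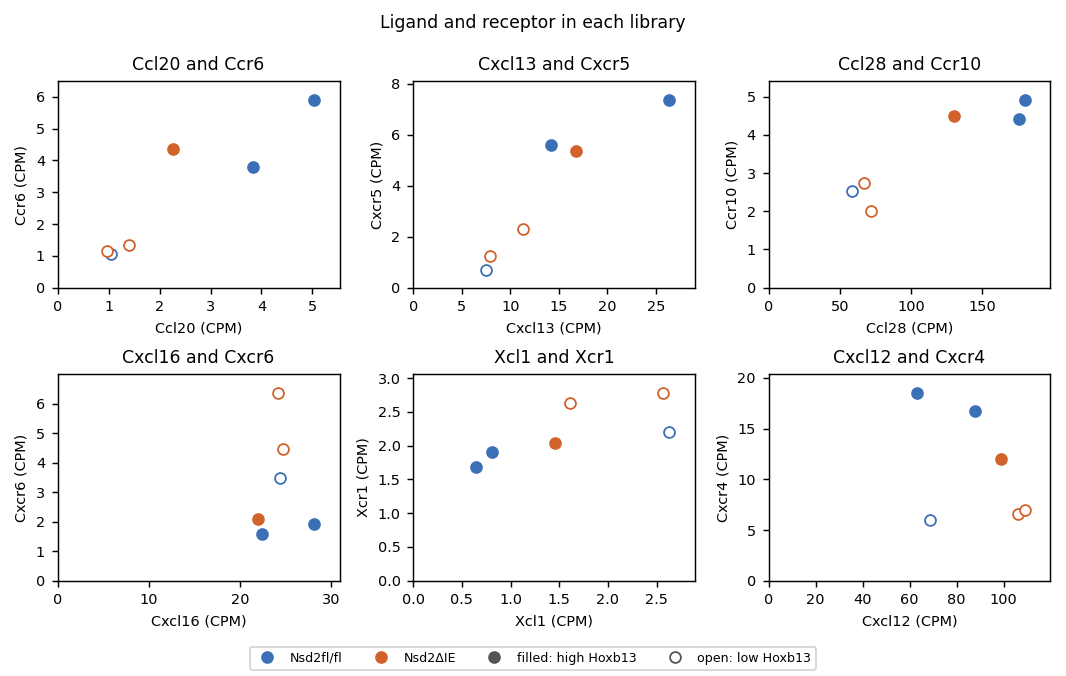
CPM of a ligand (horizontal) against CPM of its receptor (vertical) for 6 pairs, with a point for each library (blue, Nsd2fl/fl; orange, Nsd2ΔIE; filled, high Hoxb13; open, low Hoxb13). Filled points lie at the upper right for Ccl20 with Ccr6, Cxcl13 with Cxcr5 and Ccl28 with Ccr10, and at the lower left for Xcl1 with Xcr1. Cxcl16 keeps within a narrow range while Cxcr6 separates the filled from the open points, and Cxcl12 separates the genotypes and Cxcr4 does not.

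Xcl1, released by natural killer and CD8 T cells to attract Xcr1-bearing dendritic cells, had 31, 93 and 23 counts in Nsd2fl/fl and 58, 102 and 67 in Nsd2ΔIE. The groups overlapped, with Nsd2fl/fl replicate 2 close to the highest Nsd2ΔIE value (log2 fold change 0.47, SE 0.584, unadjusted p = 0.447). The log2 fold change was 1.37 (unadjusted p = 0.0136) without that library, the only low-Hoxb13 control, and 0.15 without Nsd2fl/fl replicate 3. With the side of the leading principal component as covariate it was 0.3 (edgeR unadjusted p = 0.47). Xcr1 had a log2 fold change of 0.36 at 0.499 FPKM. An exon of Xcl1 overlaps Gm20743 in the annotation, and its count is uncertain.

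The inflammatory CC ligands attract monocytes, eosinophils and effector T cells. Of the 10 detected, 9 had a log2 fold change above 0, with a median of 0.54, beside 43.7% of all genes above 0 and a median of -0.041. The direction depended on the sets of libraries. With the side of the leading principal component as covariate, Ccl4 was at -0.12, Ccl9 at -0.06, Ccl6 at -0.0038 and Ccl8 at -0.53. The rest of the list stayed above 0 in that fit. Between high-Hoxb13 libraries alone, Ccl2 was at -0.92 and Ccl7 at -0.53. By p and fold 2 of the 10 were higher, beside 8.05% of all genes. Ccl12, a ligand of Ccr2 on monocytes, had 41, 27 and 44 counts in Nsd2fl/fl and 64, 125 and 95 in Nsd2ΔIE. All Nsd2ΔIE libraries were above all Nsd2fl/fl libraries, at 2.35 ± 0.772 against 1.02 ± 0.239 CPM (log2 fold change 1.2, SE 0.36, unadjusted p = 0.0131, edgeR adjusted p = 0.324). The unadjusted p was under 0.05 in 15 of 16 alternatives, with adjusted p from 0.0852 to 0.99, and was 0.0552 without Nsd2ΔIE replicate 2.

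Ccl24, an eosinophil-attracting ligand of Ccr3, had 11, 4 and 4 counts against 23, 13 and 17. The groups did not overlap, but the lowest values were barely above the 3 counts that a count of 0 allows, and the log2 fold change of 1.34 (SE 0.536, unadjusted p = 0.0421, edgeR adjusted p = 0.431) passed p in 8 of 16 alternatives. Of the fits that left out a library, only the one without Nsd2fl/fl replicate 1 kept it, at 1.93 (unadjusted p = 0.0142). With a mean of 12 counts it was just inside the limit of detection used here, and Ccl3, with a mean of 9.67 counts, was just outside.

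Ccl11, the other ligand of Ccr3 and mainly a stromal product, had 548, 780 and 812 counts in Nsd2fl/fl and 924, 1000 and 1146 in Nsd2ΔIE. Its values did not overlap between the groups, with 19.7 ± 4.74 against 25.4 ± 2.16 CPM, and the difference was short of the threshold (log2 fold change 0.37, SE 0.199, unadjusted p = 0.109, edgeR adjusted p = 0.557). With library totals alone the unadjusted p was 0.0291, and without Nsd2fl/fl replicate 1 the log2 fold change was 0.18. The receptor Ccr3 had 2, 27 and 15 counts against 21, 66 and 29, a log2 fold change of 1.23 with an SE of 0.849.

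Ccl6, by contrast, differed little between any libraries. It had 16986, 22174 and 21802 counts in Nsd2fl/fl and 23088, 23991 and 21647 in Nsd2ΔIE, with a log2 fold change of 0.03 (SE 0.18, unadjusted p = 0.892) whose sign changed in 4 of 16 alternatives. Ccl9, its neighbour on chromosome 11 and like it a ligand of Ccr1, had 964, 2408 and 1293 counts against 1177, 2594 and 2672, so that the 3 low-Hoxb13 libraries were highest (log2 fold change 0.30). Ccl5, made by cytotoxic T cells, had 123, 650 and 100 counts against 249, 744 and 660 with the same division (log2 fold change 0.75, SE 0.789). Ccl4, a further ligand of this cluster, had 3 to 40 counts and a log2 fold change of 0.56.

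The monocyte ligands Ccl2 and Ccl7 had log2 fold changes of 0.51 and 0.66 at 1.13 and 1.54 FPKM. Both were lowest in Nsd2fl/fl replicate 2, at 8 and 18 counts. Ccl8 alone in this list was below 0 without a covariate, at -0.39. It had 855, 717 and 1264 counts against 462, 795 and 1154, and its groups overlapped.

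The receptors of the inflammatory ligands are carried by monocytes, macrophages, eosinophils and effector T cells. Ccr1 of monocytes and macrophages had 303, 255 and 322 counts against 307, 379 and 325 (log2 fold change 0.06, SE 0.175, unadjusted p = 0.741). Ccr2 of monocytes had a log2 fold change of 0.12 at 2.12 FPKM. The macrophage markers had a summed level of 277 to 363 CPM in Nsd2fl/fl and 338 to 364 CPM in Nsd2ΔIE, and 0 of 8 passed the threshold.

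**Figure D5:**
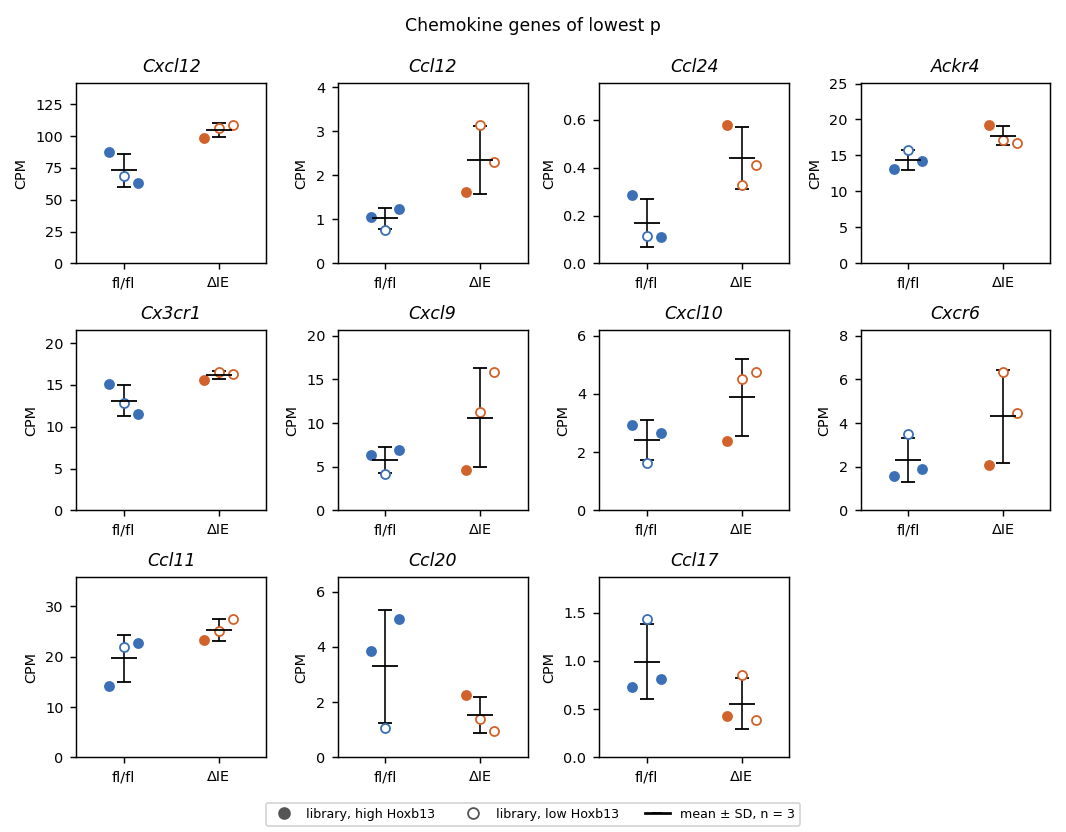
CPM in each library of 11 of the 12 chemokine genes with the smallest unadjusted p, with the mean and SD of 3 libraries in each group (filled, high Hoxb13; open, low Hoxb13). Nsd2ΔIE libraries lie above all Nsd2fl/fl libraries for Cxcl12, Ccl12, Ccl24, Ackr4, Cx3cr1 and Ccl11, and overlap them for the rest.

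Cxcl9 and Cxcl10 attract effector T cells through Cxcr3 after induction by interferon. Cxcl9 had 244, 146 and 245 counts in Nsd2fl/fl and 184, 449 and 661 in Nsd2ΔIE. Cxcl10 had 113, 58 and 95 counts against 94, 179 and 198. Both genes were high in Nsd2ΔIE replicates 2 and 3 and within the control range in replicate 1. The log2 fold change of Cxcl9 was 0.88 (SE 0.446, unadjusted p = 0.0908) and that of Cxcl10 was 0.69 (SE 0.363, unadjusted p = 0.102), with edgeR adjusted p of 0.527 and 0.547. Without Nsd2ΔIE replicate 1, the only high-Hoxb13 library of its group, they were 1.24 (unadjusted p = 0.00579) and 0.95 (unadjusted p = 0.0307). Without Nsd2ΔIE replicate 3 they were 0.47 (unadjusted p = 0.33) and 0.51 (unadjusted p = 0.275). With the side of the leading principal component as covariate they were 0.61 (edgeR unadjusted p = 0.291) and 0.62 (unadjusted p = 0.197). The direction differed between the sets of libraries, at -0.50 and 1.69 for Cxcl9 and -0.23 and 1.47 for Cxcl10 in the high-Hoxb13 and low-Hoxb13 libraries. Cxcr3, an X-linked gene, had 83, 109 and 86 counts against 45, 114 and 127 (log2 fold change -0.11, or 0.03 with library totals alone). Cxcl10 exons overlap Art3 on the opposite strand, so its count is uncertain.

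The 250 bases before the RefSeq start site (GRCm38.p6) are shown for 4 ligands. These were picked as examples and do not stand for induced or constant ligands as classes. They are the interferon-induced Cxcl10 (chr5:92348890-92349139, minus strand), the follicle-associated Ccl20 (chr1:83116516-83116765, plus strand), the neutrophil ligand Cxcl2 (chr5:90903649-90903898, plus strand) and the stromal Cxcl12 (chr6:117168285-117168534, plus strand). Each is written 5′ to 3′ in the direction of its gene, and capitals mark matches on either strand to the NF-kappaB motif or, in Cxcl10, also to the interferon-stimulated response element searched as GAAANNGAAA.
Cxcl10: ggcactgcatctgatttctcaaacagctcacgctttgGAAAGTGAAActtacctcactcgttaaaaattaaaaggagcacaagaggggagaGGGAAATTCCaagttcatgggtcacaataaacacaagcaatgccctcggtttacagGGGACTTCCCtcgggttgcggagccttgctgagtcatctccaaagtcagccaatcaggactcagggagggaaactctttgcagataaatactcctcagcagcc
Ccl20: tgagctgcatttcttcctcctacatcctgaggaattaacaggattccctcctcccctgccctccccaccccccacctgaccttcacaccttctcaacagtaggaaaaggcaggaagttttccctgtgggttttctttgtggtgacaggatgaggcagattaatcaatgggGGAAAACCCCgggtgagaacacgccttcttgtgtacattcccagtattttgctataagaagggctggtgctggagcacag
Cxcl2: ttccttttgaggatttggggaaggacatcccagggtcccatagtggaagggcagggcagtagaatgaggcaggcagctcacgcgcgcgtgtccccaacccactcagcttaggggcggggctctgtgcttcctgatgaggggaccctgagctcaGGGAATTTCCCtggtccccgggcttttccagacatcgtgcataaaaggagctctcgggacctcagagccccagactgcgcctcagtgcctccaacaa
Cxcl12: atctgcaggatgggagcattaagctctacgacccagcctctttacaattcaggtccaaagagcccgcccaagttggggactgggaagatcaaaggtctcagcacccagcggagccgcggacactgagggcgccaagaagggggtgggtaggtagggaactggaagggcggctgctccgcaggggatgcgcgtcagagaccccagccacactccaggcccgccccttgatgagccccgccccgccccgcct
Cxcl10 held 2 NF-kappaB matches, which begin 159 and 103 bases before the start, and the response element match at 213. Ccl20 held 1 NF-kappaB match at 80, Cxcl2 held 2 overlapping ones at 97 and 96, and Cxcl12 held neither motif. RefSeq promoters were matched to 41 of the 54 genes (48 promoters), and 9 of the 48 held an NF-kappaB match, those of Ackr2, Ccl9, Ccl20, Ccr3, Ccr6, Cxcl1, Cxcl2, Cxcl3 and Cxcl10, beside 3.9% of 32851 promoters. The response element was in 3 (Ccl19, Cxcl10 and Cxcl14), beside 2.98%, and the TATAAA letters were in 13, beside 12.4%. The motifs did not follow the roles. Cxcl9, also induced by interferon, held neither the NF-kappaB motif nor the response element, while the homing ligands Ccl19 and Cxcl14 held the latter. No promoter was matched to Ccl2, Ccl5 or Ccl7. A match is a description of the letters and not of binding.

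Genes that attract neutrophils were near the floor of detection in every library. Cxcl1 had 2, 0 and 9 counts in Nsd2fl/fl and 1, 8 and 6 in Nsd2ΔIE, and it was the highest of its list. Cxcl2 had 0 to 4 counts, Cxcl3 0 to 1 and Cxcl5 0 to 14, the last in Nsd2fl/fl replicate 3 alone with 0 to 1 in the others. Their receptor Cxcr2 had 3, 1 and 5 counts against 0, 0 and 2. A count of 0 allows up to 3 counts, or 0.0723 to 0.0847 CPM in these libraries, so no difference between the groups was detectable for these genes at this depth. Of the 6 neutrophil markers, S100a8 had 0 to 8, S100a9 0 to 9 and Mpo 0 to 1 counts, Csf3r had 81 to 159 and Retnlg 21 to 80, and Ly6g ran from 33 to 6624 counts and followed Hoxb13, at 4438, 6624 and 4437 counts against 1146, 33 and 274. The 4 ligands lie within chr5:90759360-90905938. Outside this list, Ccl1 had 0 to 6 counts, Ccl27b 0 to 5, Ccl3 4 to 22 and Cxcl17, a mucosal ligand, 2, 1 and 5 against 0, 0 and 6.

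The membrane-anchored ligands Cx3cl1 and Cxcl16 combine a chemokine domain with a transmembrane stalk. Cx3cl1 had 4310, 2906 and 2862 counts in Nsd2fl/fl and 3696, 3095 and 2762 in Nsd2ΔIE, and the groups overlapped (log2 fold change -0.21, SE 0.183, unadjusted p = 0.298). Its level of 27.2 FPKM exceeded that of Cxcl16 at 16.3 ± 1.28 FPKM, which had the narrowest range of the detected genes, 1.28-fold in CPM from the lowest to the highest library, and a log2 fold change of -0.08, or 0.05 with library totals alone. Exons of Cxcl16 overlap Zmynd15 on the opposite strand, so its count is uncertain.

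The receptors of these ligands had log2 fold changes above 0 and did not pass the test. Cx3cr1, which marks resident macrophages of the gut wall, had 583, 454 and 411 counts in Nsd2fl/fl and 618, 658 and 676 in Nsd2ΔIE. The groups did not overlap, at 13.2 ± 1.82 against 16.2 ± 0.518 CPM (log2 fold change 0.30, SE 0.146, unadjusted p = 0.0845, edgeR adjusted p = 0.515). Without Nsd2fl/fl replicate 1 it was 0.4 (unadjusted p = 0.0242). Its unadjusted p was under 0.05 in 5 of 16 alternatives and reached 0.206. Its exons overlap Gm33858, and its count is uncertain. Cxcr6, the Cxcl16 receptor of tissue-resident T cells and innate lymphocytes, had 61, 123 and 68 counts against 83, 252 and 186, with the 3 low-Hoxb13 libraries highest (log2 fold change 0.89, SE 0.481, unadjusted p = 0.107, edgeR adjusted p = 0.555). Without Nsd2fl/fl replicate 2 it was 1.3 (unadjusted p = 0.0346) and without Nsd2ΔIE replicate 1 it was 1.23 (unadjusted p = 0.0224). With the side of the leading principal component as covariate it was 0.46 (edgeR unadjusted p = 0.135). Between high-Hoxb13 libraries the Cxcr6 difference was 0.26 and between low-Hoxb13 libraries 0.61.

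Among the atypical receptors, Ackr4, which is found on lymphatic and stromal cells, had 505, 558 and 510 counts in Nsd2fl/fl and 764, 681 and 699 in Nsd2ΔIE. All Nsd2ΔIE libraries were above, at 17.8 ± 1.32 against 14.4 ± 1.33 CPM (log2 fold change 0.30, SE 0.134, unadjusted p = 0.0599, edgeR adjusted p = 0.466). Library totals alone gave 0.43 (unadjusted p = 0.0127), and the fit without Nsd2fl/fl replicate 2 gave 0.37 (unadjusted p = 0.045). The unadjusted p was under 0.05 in 5 of 16 alternatives and ranged from 0.01 to 0.165. Of the lymphatic markers given above, Prox1 was higher and the other 3 did not pass, and their part was not tested. The exons of Ackr4 overlap Acad11 on the opposite strand and its count is uncertain. Ackr2, a scavenger of inflammatory CC chemokines, had a log2 fold change of -0.06 at 0.947 FPKM, or 0.06 with library totals alone.

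Many of these genes lie side by side in the genome. On chr11:82035571-82305690, with Ccl2, Ccl7, Ccl11, Ccl12, Ccl8 and Ccl1, the 5 detected genes ranged from -0.39 to 1.2 in log2 fold change, 4 of them above 0. On chr11:83525778-83664683, with Ccl5, Ccl9, Ccl6, Ccl3 and Ccl4, all 4 detected were above 0, from 0.03 to 0.75. With the side of the leading principal component as covariate, Ccl5 was at 0.47, Ccl6 at -0.0038, Ccl9 at -0.06 and Ccl4 at -0.12. On chromosome 9, Ccr9, Cxcr6, Xcr1, Ccr1, Ccr3 and Ccr2 lie in one cluster, with log2 fold changes from -0.08 for Ccr9 to 1.23 for Ccr3. The 3 genes on chr8:94745590-94812036 (Ccl22, Cx3cl1 and Ccl17) were below 0, from -0.83 to -0.21. Cxcl12 and Ccl20, on chromosomes 6 and 1, have no other member within 500 kb.

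Genes that act with the family were read from 4 lists with 67 names, of which 63 were tested. By p and fold 4 were higher and 2 lower, and 0 had an adjusted p under 0.05 (edgeR), with 34 above and 29 below 0. These shares, 6.35% higher and 3.17% lower, lay near the 8.05% and 2.21% of all genes, so the genes named next are given as values only. Of 34 signalling genes, 3 were higher and 1 lower. Gng2, a G protein gamma subunit, had 637, 455 and 534 counts in Nsd2fl/fl and 859, 1134 and 1201 in Nsd2ΔIE (log2 fold change 0.84, unadjusted p = 0.00172). Rgs1, which ends G protein signals in lymphocytes, had 348, 109 and 291 against 549, 764 and 1161 counts (log2 fold change 1.59, unadjusted p = 0.00928). Lyn, a kinase of B and myeloid cells, was lower at 2049, 1676 and 2085 against 1802, 1607 and 1598 counts (log2 fold change -0.35, unadjusted p = 0.024).

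Of the 7 related chemoattractants and receptors tested, 1 was higher. Rarres2, which encodes the chemoattractant chemerin, had 3366, 2997 and 2648 counts in Nsd2fl/fl and 4842, 4254 and 5102 in Nsd2ΔIE (log2 fold change 0.52, unadjusted p = 0.00276). None of the 10 adhesion and homing molecules passed p and fold, at a median log2 fold change of 0.02. Of 12 inducers of chemokine genes tested, Tnf alone passed, with 31, 79 and 56 counts in Nsd2fl/fl and 14, 21 and 30 in Nsd2ΔIE, below every control (log2 fold change -1.51, SE 0.487, unadjusted p = 0.0179, edgeR adjusted p = 0.352).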

How the data were processed

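Total RNA of mouse colon was sequenced, and the 6 libraries were grouped by the genotype in the labels. The submitters' processing notes name fastp, HISAT2, HTSeq, R 3.2.0 and build mm10. The settings, the annotation and the use of strand are not given in the sources used here. The authors deposited a whole-number read count for each gene symbol and library. The authors also deposited FPKM, which is that count divided by gene length and library total. For 17863 genes with reads in every library, the implied length was the same to within 0.0783 bases.

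The comparison used edgeR 4.0.16 (R 4.3.3) with filterByExpr, which left 16347 genes, TMM factors and the two-sided quasi-likelihood test of genotype alone. Adjusted p is Benjamini-Hochberg over these genes. For SE, the absolute log2 fold change was divided by the root of F. CPM is TMM-scaled, and log2 differences within a set of libraries used log2(CPM + 0.05) with no test. The fit was tested on simulated counts with genotype as the only factor. Those counts held no Hoxb13 division, so the simulation does not cover it. The alternatives were DESeq2 1.42.0, limma-voom with quality weights for the libraries (limma 3.58.1), and limma on log2(FPKM + 1) and log2(FPKM + 0.1). Further ones were other scalings, no filter, a fold over 1.5, a replicate block and leaving out each library. A fit with the side of the leading principal component as covariate was added after the data were seen. No pair of libraries agreed within sampling noise, with a chi-square per degree of freedom of at least 35.5 in 15 pairs.

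The genes and lists were chosen with earlier results of these data known. Given in full were the 12 tested genes of smallest unadjusted p and the gene of highest FPKM in each role list. The values of 1 gene of the family and of some listed genes are not reported here, although counts include them. Every other gene was given by level and log2 fold change. Genes outside the family were named from lists only where the unadjusted p was under 0.05, and markers and label checks besides. Smooth muscle, neuronal and other marker lists served as checks. The neutrophil, adipocyte, plasma cell, NK cell, dendritic cell, mast cell, blood endothelium and epithelium lists had 0 to 2 genes past p and fold in either direction. Some still leaned to 1 side in log2 fold change. All 8 epithelial markers were below 0 (median -0.31), with overlapping sums of 9802 to 17309 CPM in Nsd2fl/fl and 9841 to 11162 in Nsd2ΔIE. All 5 plasma cell markers tested were below 0 (median -0.51). All 5 NK cell and ILC markers (median 0.78) and all 5 adipocyte markers tested were above 0. The other lists were mixed. Their part in the chemokine values was not tested. Igha, Trac and Epx of these lists, and Ccl21b, Ccl21c, Cxcl15, Cxcr1, Cxcl11, Ackr1 and Ccl26 of the role lists, were not analysed here. Positions are from GENCODE M21 (GRCm38, mm10) by symbol, which matched all 54 genes, and promoters from RefSeq (GRCm38.p6). Promoters of both strands were searched. Depth allows 3 counts where 0 were seen, and such floors cover counting error only.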

Additional observations from a re-analysis of the deposited data

How the results depend on the processing

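Of 19 chemokine genes followed through 16 alternatives, 15 kept the sign of their log2 fold change in all of them, and 0 of the 44 tested had an adjusted p under 0.05 in any. The count of chemokine genes higher by p and fold, 4 as reported, was 7 both with log2(FPKM + 0.1) and with library totals alone, and 1 to 7 when a library was left out. The count of lower genes, 0 as reported, was 1 with the side of the leading principal component as covariate (Ccl17) and 0 to 3 when a library was left out. The genes called over the whole table at an adjusted p under 0.05, 5 as reported, were 466 with DESeq2 and 3 to 5 when a library was left out. The cause of these shifts was not tested.

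Same-numbered libraries deviated from their group means with correlations of 0.501, 0.643 and -0.166 for replicates 1, 2 and 3. Replicates 1 and 2 were on the same Hoxb13 side in both groups, and replicate 3 was not. Pairing by number therefore cannot be told apart from that division. With the replicate block the count of higher genes was 7, among them Ccl11, Ccl12, Ccl24, Ccr3, Cxcl12 and Cxcr6.

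The sign turned for 4 genes with differences near 0. Ccl21a was -0.014 with limma-voom, Ccl6 was -0.0069 with no filter on low counts and -0.0038 with the covariate, and Ackr3 was -0.0086 and -0.013 in the same fits. When a library was left out, Ccl21a ranged from -0.071 to 0.24, Ccl6 from -0.12 to 0.12, Ccr1 from -0.045 to 0.16 and Ackr3 from -0.084 to 0.16. With 3 libraries a group and a common dispersion of 0.0967, the spread between libraries limits genes of moderate level, while counting noise also limits the detected genes of lowest count, such as Ccl24, Ccl19 and Ccl4, and the 10 genes not detected.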
